A study of Homo sapiens with 6 samples.

Results

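The translation elongation factor genes were compared between untreated HEK293T cells and cells treated with valproic acid (VPA), with EEF1A2 set against its paralog EEF1A1. The 8 genes EEF1A1, EEF1A2, EEF1B2, EEF1D, EEF1G, EEF1E1, EEF2 and EEF2K were taken by symbol from the 47470 genes listed in the count files, and all 8 were among the 15298 genes that passed the filter on low counts and were tested. EEF1A2 was chosen by its measured rise in counts in VPA-treated cells, so its own change and its share of EEF1A1 plus EEF1A2 are given as a description with no test. HEK293T cells come from human embryonic kidney and express the large T antigen of SV40, and VPA is an inhibitor of histone deacetylases. RNA-seq libraries were made from 3 samples of untreated cells and from 3 samples of cells kept for 1 day in 1 mM VPA, and both groups are the same line. The labels give no separate cultures, so p-values measure the spread between these samples, which may be technical.

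In elongation, eEF1A bound to GTP brings each aminoacyl-tRNA to the ribosome, the eEF1B complex exchanges the spent GDP for GTP, and eEF2 moves the ribosome along the mRNA by one codon. Vertebrates have 2 eEF1A proteins that are close in sequence. The gene of the first, EEF1A1, is active in most tissues and in growing cells, and the gene of the second, EEF1A2, is known for its activity in neurons and in heart and skeletal muscle, where it takes the place of EEF1A1 as these tissues mature. The eEF1B complex holds the exchange subunits eEF1Bα (EEF1B2) and eEF1Bδ (EEF1D) and the structural subunit eEF1Bγ (EEF1G). EEF1E1, also named AIMP3 or p18, is a scaffold of the multi-tRNA synthetase complex, and EEF2K is the kinase that phosphorylates eEF2 and slows elongation.

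Many mRNAs of the translation machinery start with a run of pyrimidines, the 5′ terminal oligopyrimidine (TOP) motif, through which mTOR signalling is known to control their translation. The bases around the annotated start are shown for this reason, since they divide the genes in a way that the choice of genes did not use. RefSeq promoter entries on GRCh38.p14 were matched for 6 of the 8 genes, and EEF1A2 and EEF1D are not shown. Each line holds 30 bases, 15 before the start and 15 from it, 5′ to 3′ on the strand of the gene, with a start tract in capitals.
EEF1A1: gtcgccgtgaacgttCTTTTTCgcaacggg
EEF2: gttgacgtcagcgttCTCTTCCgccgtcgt
EEF1B2, second start: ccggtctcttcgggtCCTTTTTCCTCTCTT
EEF1B2, first start: gccggaagtggccccagcctcgaggccggg
EEF1G: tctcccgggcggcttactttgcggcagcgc
EEF1E1: tgttctgcaggtctcgcgtctgccaggagc
EEF2K: tgcccgcccgcttctgctcaacctagacca
The lines lie at chr6:73521018-73521047 on the minus strand (EEF1A1), chr19:3985449-3985478 minus (EEF2), chr2:206159880-206159909 and chr2:206159594-206159623 plus (EEF1B2), chr11:62573877-62573906 minus (EEF1G), chr6:8102534-8102563 minus (EEF1E1) and chr16:22206263-22206292 plus (EEF2K). A start tract was scored on the gene's strand alone as a C at the first transcribed base followed by at least 4 further C or T bases, 5 in all. EEF1A1 and EEF2 had a tract of 7 bases and the second start of EEF1B2 one of 16, of which the line shows the first 15. EEF1G, EEF1E1, EEF2K and the first start of EEF1B2 had none at these annotated starts. Of all 35116 promoter entries 4.07% held such a tract. Counted by gene, with a tract at any annotated start, 7.12% of 11739 tested genes with an entry had one. Among cytosolic ribosomal protein genes with an entry 43 of 58 had one.

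The libraries were of nearly equal depth, with 18622267 to 18828495 counts on genes, and all replicates of a group differed by more than sampling noise. The genes VIM, KRT8, KRT18, CDH2 and PAX2, read for the labelled line, all had counts in every library, which cannot establish its identity. VIM and CDH2 were lower in VPA-treated cells, at log2 fold changes of -0.27 and -0.37. KRT8, KRT18 and PAX2 were higher, at 1.37, 0.22 and 2.26. The sum of the 5, most of it VIM, was 14040 to 14499 normalized counts in untreated and 12586 to 13157 in VPA-treated libraries. Normalized counts are counts divided by the TMM-scaled library size and brought to the mean library. All 1437 listed genes of chromosome X are listed at 0. The RNA was taken in bulk, so that a change in the number of cells that express a gene and a change in its RNA per cell cannot be told apart.

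The elongation factor genes were among the best counted in these cells. EEF1A1 had the most normalized counts of all 15298 tested genes, EEF2 was at place 3 and EEF1G was at place 16. Together the 8 genes took 1.56% ± 0.069 of the counts on genes in untreated and 1.36% ± 0.015 in VPA-treated libraries (SD, n = 3 each). EEF1B2 and EEF1D stood at places 285 and 304, EEF1A2 at 998, EEF2K at 5487 and EEF1E1 at 9934.

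These places are of counts, which also grow with transcript length. Levels were therefore compared between genes per length, as normalized counts per kb of the MANE Select transcript, the transcript that RefSeq and GENCODE agreed on for each gene. The level of EEF1A1 was 41955 ± 3210 per kb in untreated cells (SD, n = 3), with EEF1G at 36058 ± 3536, and the libraries of these 2 genes overlapped. EEF2 followed with 26727 ± 396 per kb, EEF1B2 with 12415 ± 798 and EEF1D with 4432 ± 128. EEF1A2 came next, at 930 ± 24.7 per kb in untreated cells. EEF1E1 at 173 ± 18.8 and EEF2K at 105 ± 4.17 were the lowest of the 8, and all of these neighbours after EEF1G lay apart in every library. In VPA-treated cells the order of the 8 genes stayed as it was, but EEF1A2 at 3124 ± 107 per kb (3002 to 3205) lay close below EEF1D at 3437 ± 79.0 (3367 to 3523). EEF1A1 at 32677 ± 519 and EEF1G at 29095 ± 1188 per kb no longer overlapped there. For these levels the length of each transcript is taken as given, and a shorter or longer main transcript in the cells would move them. The level and place of EEF1E1 may also be too low. Reads that it shares with the read-through gene EEF1E1-BLOC1S5, which covers it, may have been set aside as ambiguous.

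EEF1A2 lies on the minus strand of chromosome 20 (63488014 to 63499083) (RefSeq, GRCh38.p14) and has 8 exons in its MANE Select transcript. Untreated libraries had 1605, 1652 and 1692 normalized counts of EEF1A2, and VPA-treated libraries had 5609, 5323 and 5682. The lowest VPA-treated library was thus above the highest untreated one, and the spread within each group was small beside the gap. The means were 1650 ± 43.8 and 5538 ± 190 (SD, n = 3 each), and edgeR fitted a log2 fold change of 1.75 (standard error 0.043), or 3.36-fold. The gene counted as up-regulated by the study's thresholds (log2 fold change of 1 or more, adjusted p under 0.05), as did 12.0% of all tested genes, and nothing is read from this since the same contrast chose the gene. By log2 fold change it stood at place 809 of the 15298. The fold change was between 1.72 and 1.77 with each library left out in turn.

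EEF1A1 lies on the minus strand of chromosome 6 (73515750 to 73521032) and also has 8 exons in its MANE Select transcript. Untreated libraries had 134377, 154774 and 152891 normalized counts of EEF1A1, and VPA-treated libraries had 112770, 115162 and 116350. All VPA-treated libraries were below all untreated ones, and the first untreated library was the lowest of its group. The log2 fold change was -0.36 (standard error 0.054, adjusted p = 5.82e-06, edgeR's quasi-likelihood test), from a mean of 147347 ± 11272 to 114760 ± 1823 (SD, n = 3 each). EEF1A1 therefore fell where EEF1A2 was higher, but by far less in proportion. The normalized counts of EEF1A1 changed by -32587 and those of EEF1A2 by 3888, so that the sum of both went from 148997 ± 11309 to 120298 ± 1834.

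**Figure D1:**
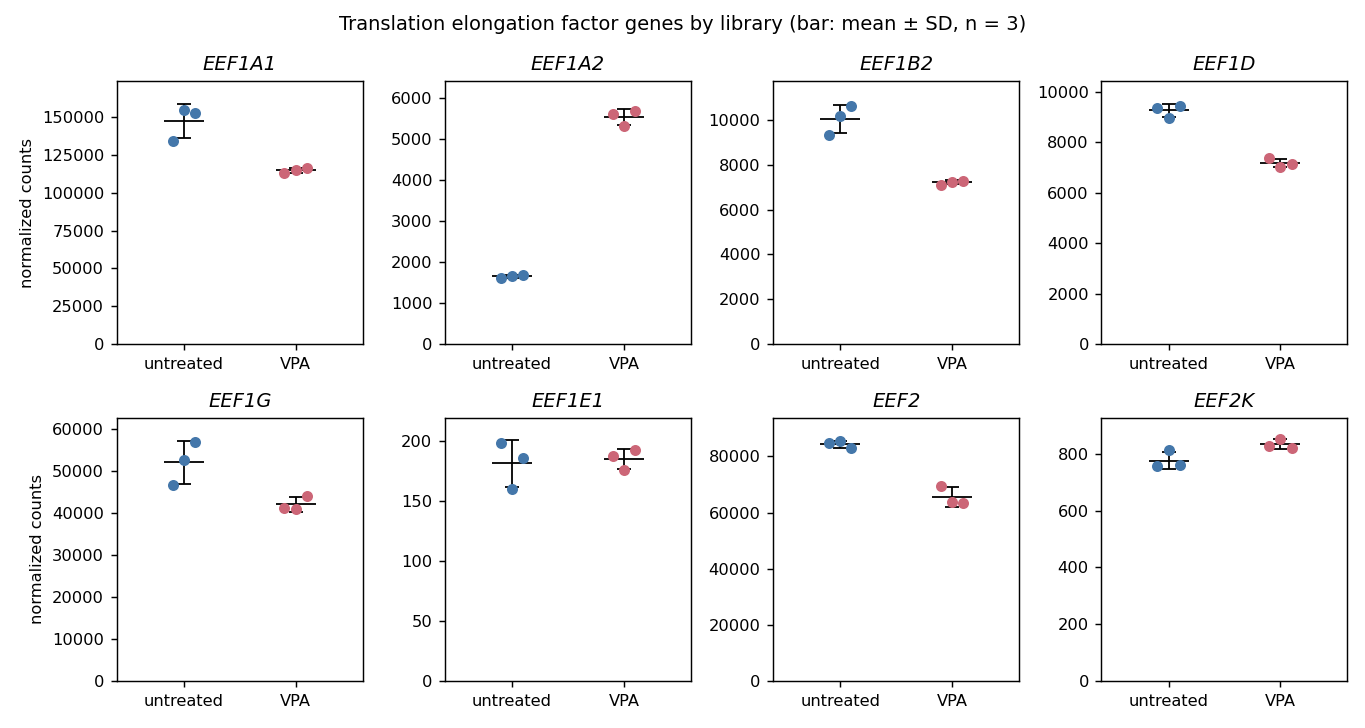
Normalized counts of the 8 elongation factor genes in each library, with untreated libraries in blue, VPA-treated libraries in red, and the mean ± SD of 3 as a bar; each vertical axis starts at 0. EEF1A2 is higher in all VPA-treated libraries, and so by a small margin is EEF2K, which did not pass the test. EEF1A1, EEF1B2, EEF1D, EEF1G and EEF2 are lower in all VPA-treated libraries, while the groups overlap for EEF1E1.

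The share of EEF1A2 in the counts of both paralogs is a ratio within a library and does not depend on how libraries are scaled. The untreated libraries had 1550, 1578 and 1612 counts of EEF1A2 against 129795, 147861 and 145646 of EEF1A1. The share was 1.18%, 1.06% and 1.09% in these libraries, with exact 95% binomial intervals of 1.12 to 1.24%, 1.00 to 1.11% and 1.04 to 1.15%. The VPA-treated libraries had 5853, 5526 and 5935 counts of EEF1A2 against 117681, 119552 and 121524 of EEF1A1. There the share was 4.74% (4.62 to 4.86%), 4.42% (4.30 to 4.53%) and 4.66% (4.54 to 4.77%). The intervals cover counting error only.

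On average the share went from 1.11% ± 0.064 in untreated to 4.60% ± 0.17 in VPA-treated libraries (SD, n = 3 each), a ratio of 4.15. In other words, there were 89.3 ± 5.07 counts of EEF1A1 for each count of EEF1A2 in untreated cells and 20.7 ± 0.80 in VPA-treated cells. EEF1A1 thus remained the main eEF1A gene by counts in every library. The MANE Select transcript of EEF1A1 has 3512 bases and that of EEF1A2 has 1773, and which transcripts the cells made was not measured. Per kb of these transcripts the share of EEF1A2 was 2.18% ± 0.12 in untreated and 8.73% ± 0.30 in VPA-treated cells, and per kb of all merged exons (10063 and 4826 bases in GENCODE 44) it was 2.29% and 9.14%.

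**Figure D2:**
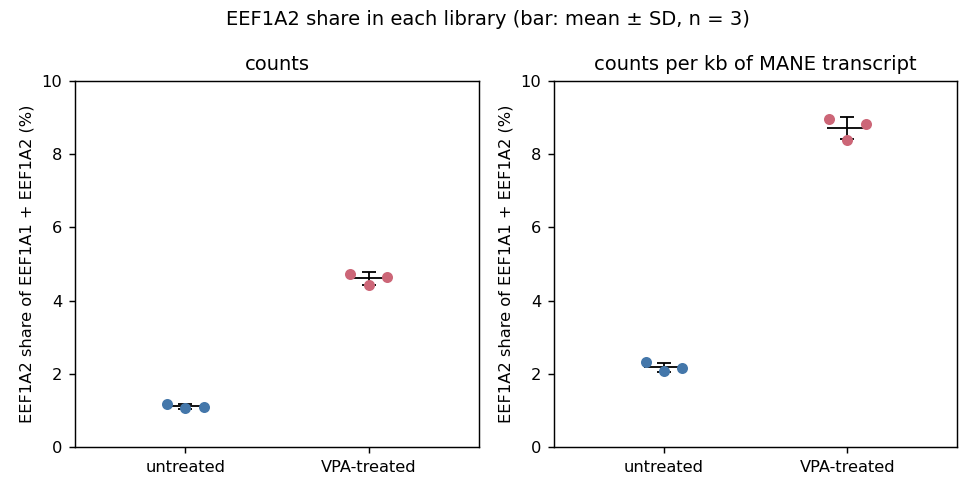
Share of EEF1A2 in EEF1A1 plus EEF1A2 in percent for each library, from counts (left) and from counts per kb of the MANE Select transcript (right), with the mean ± SD of 3 as a bar. The untreated libraries lie between 1.06% and 1.18% by counts and the VPA-treated ones between 4.42% and 4.74%.

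Reads that aligned to more than 1 place were set aside, 2.81% to 2.92% of the reads listed per library, and how many of them came from EEF1A1 or EEF1A2 is not known from these files. RefSeq names 50 pseudogenes of EEF1A1, and none of them is listed in the count files. Reads that fitted such a pseudogene alone would have been counted as off any gene, and their number is not known from these files. No other listed gene overlaps EEF1A1, and the 1 listed gene that overlaps EEF1A2, LOC124904955, had 2 counts in all.

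The 7 other genes fell into a group of 5 that were lower in VPA-treated cells and 2 that did not pass the test. Of all tested genes 30.0% were lower and 32.9% higher at an adjusted p under 0.05, so that 5 of 7 lower and 0 of 7 higher is above and below these shares. Their median log2 fold change was -0.36, against 0.0058 over all tested genes. None of the 7 reached a log2 fold change of 1 in size with an adjusted p under 0.05, which 12.5% of all tested genes did, while 0.503% of all tested genes were lower by that much. All 5 lower genes also had no overlap between the groups, as had 31.0% of tested genes in that direction.

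EEF1B2, an exchange subunit of eEF1B, had the largest fall of the 7 genes. It lies on the plus strand of chromosome 2 (206159609 to 206162928) and had 9332, 10159 and 10602 normalized counts in untreated against 7104, 7241 and 7271 in VPA-treated libraries. Its log2 fold change was -0.48 (standard error 0.045, adjusted p = 7.18e-09, edgeR's quasi-likelihood test). The small nucleolar RNA genes SNORD51 and SNORA41 lie within the gene and had 1 to 14 counts per library.

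EEF1D, the other exchange subunit, lies on the minus strand of chromosome 8 (143579728 to 143597415). Its libraries had 9380, 8956 and 9452 normalized counts in untreated and 7362, 7037 and 7152 in VPA-treated libraries. With a log2 fold change of -0.37 (standard error 0.040, adjusted p = 7.08e-08, the same test) it fell about as far as EEF1A1. The files also list a second entry, EEF1D_1, at 0, and the pseudogene EEF1DP3 with 3 to 9 counts per library.

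EEF1G, the structural subunit, lies on the minus strand of chromosome 11 (62559596 to 62573891). Its normalized counts were 46773, 52691 and 56954 in untreated and 41218, 40947 and 44048 in VPA-treated libraries, so that the groups lay apart. Relative to their mean, however, the untreated libraries were spread more widely than for any other of the 5 genes that fell (coefficient of variation 9.81%). The log2 fold change was -0.31 (standard error 0.058, adjusted p = 0.00012, the same test). The 3 genes of eEF1B were thus all lower, with fitted changes of -28.2% for EEF1B2, -22.4% for EEF1D and -19.3% for EEF1G.

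EEF2, the translocation factor, lies on the minus strand of chromosome 19 (3976056 to 3985463). Untreated libraries had 84767, 85431 and 83011 normalized counts, the most even untreated group among the 8 genes, with a coefficient of variation of 1.48%. The VPA-treated libraries had 69445, 63807 and 63254. None of these reached the lowest untreated library. The log2 fold change was -0.37 (standard error 0.048, adjusted p = 9.32e-07, edgeR's quasi-likelihood test).

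EEF2K, the eEF2 kinase, lies on the plus strand of chromosome 16 (22206278 to 22288738). Its normalized counts were 757, 812 and 761 in untreated and 829, 853 and 822 in VPA-treated libraries. All VPA-treated libraries were above all untreated ones, by a small margin, as in 34.8% of tested genes, yet the log2 fold change of 0.10 (standard error 0.053) did not pass the test (adjusted p = 0.094 in edgeR). An approximate 95% interval of the log2 fold change was -0.00012 to 0.21. With the replicate number as a block the adjusted p was 0.041, and among genes with at least 10 counts in every library it was 0.044, while it ranged from 2.09e-06 with ribosomal protein scaling to 0.41 with DESeq2 over all alternatives.

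EEF1E1, the synthetase complex scaffold, lies on the minus strand of chromosome 6 (8073360 to 8102548). Its normalized counts were 199, 160 and 186 in untreated and 188, 176 and 192 in VPA-treated libraries, and the groups overlapped. The log2 fold change was 0.031 (standard error 0.097, adjusted p = 0.80 in edgeR), an approximate 95% interval of -0.16 to 0.22. The read-through gene EEF1E1-BLOC1S5 covers the whole of EEF1E1 on the same strand and is listed at 0 in every library, and the small RNA gene SCARNA27 within EEF1E1 had 26 to 43 counts. Reads that fit both genes are called ambiguous by htseq-count in its default mode, so the counts of EEF1E1 may hold only part of its reads.

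The size of these falls depended on how the libraries were scaled. TMM scaling was 0.95 to 0.97 in untreated and 1.05 in VPA-treated libraries, while cytosolic ribosomal protein genes took 7.25% to 7.40% of the counts on genes in untreated and 6.68% to 6.73% in VPA-treated libraries. Of 73 ribosomal protein genes 70 were lower and 0 higher, with a median log2 fold change of -0.26. With library totals as the scaling the 5 genes remained lower, with log2 fold changes of -0.23 for EEF1A1, -0.35 for EEF1B2, -0.24 for EEF1D, -0.18 for EEF1G and -0.23 for EEF2. With the ribosomal protein genes as the scaling, which moved the median of all tested genes to 0.28, only EEF1B2 of the 5 still passed the test, at -0.20 (adjusted p = 0.00029, edgeR's quasi-likelihood test). The other 4 were between -0.092 and -0.033 (adjusted p of 0.051 to 0.62). On that scale EEF2K was at 0.38 and EEF1E1 at 0.31 (adjusted p = 2.09e-06 and 0.010), and EEF1A2 was at 2.02.

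**Figure D3:**
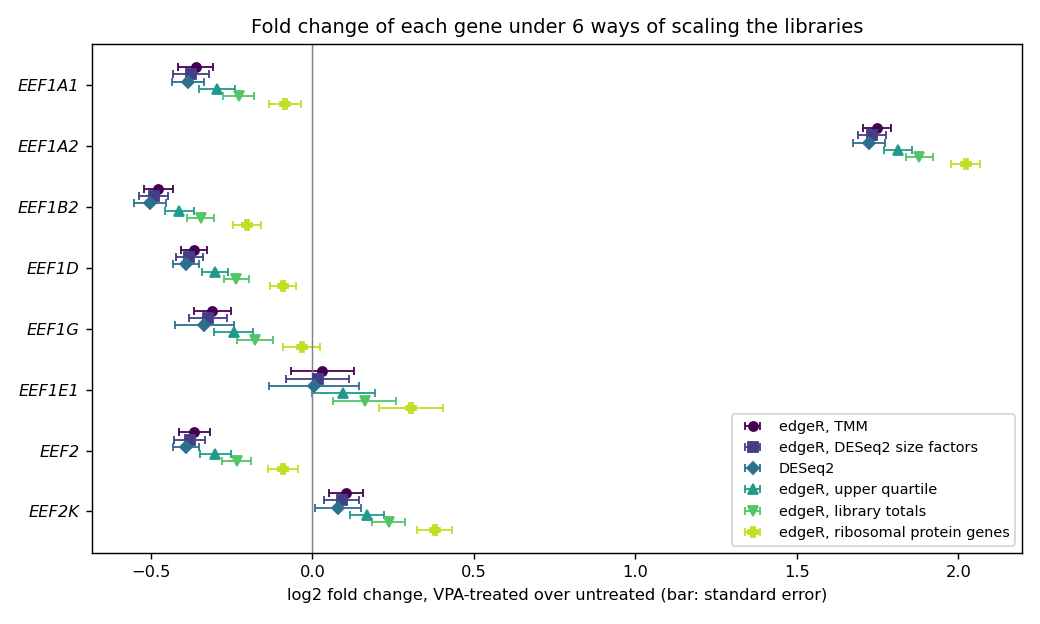
Log2 fold change of each gene, VPA-treated over untreated, with its standard error, under 6 combinations of tool and library scaling. EEF1A2 lies between 1.72 and 2.02 in all of them, while EEF1A1 moves from -0.39 with DESeq2 to -0.085 with scaling on ribosomal protein genes.

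Ratios within a library show the genes against each other without any scaling. Counts of EEF2 per 1000 counts of EEF1A1 were 575 ± 48.3 in untreated and 571 ± 39.0 in VPA-treated libraries (SD, n = 3 each, exact permutation test, two-sided, p = 0.9). EEF1D had 63.2 ± 6.08 and 62.6 ± 2.32 per 1000 (exact permutation p = 0.8), and EEF1G had 354 ± 16.8 and 367 ± 11.5 (exact permutation p = 0.3). For these 3 genes the groups overlapped. The means of EEF2 and EEF1D differed by less than the SD of either group. Those of EEF1G differed by less than the untreated SD but by more than the VPA-treated SD. EEF1B2 had 69.4, 65.6 and 69.3 per 1000 in untreated and 63.0, 62.9 and 62.5 in VPA-treated libraries, which do not overlap. Per 1000 counts of EEF2, however, EEF1B2 had 110, 119 and 128 in untreated and 102, 113 and 115 in VPA-treated libraries, which overlap (exact permutation p = 0.3, adjusted p = 0.6). EEF2K had 5.29 ± 0.33 and 7.28 ± 0.18 per 1000 and EEF1E1 had 1.24 ± 0.22 and 1.62 ± 0.075, also without overlap. The ratios of EEF1B2, EEF2K and EEF1E1 to EEF1A1 each had p = 0.1 in the exact permutation test, the smallest p that 3 libraries against 3 allow, and 0.2 after adjustment over the 6 ratios. For EEF1A2 the same ratio was 11.2 ± 0.65 and 48.3 ± 1.83 per 1000, as a description.

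Against the sum of ribosomal protein counts, EEF1A1 had 102 ± 5.84 counts per 1000 in untreated and 95.5 ± 1.87 in VPA-treated libraries (SD, n = 3 each), and the groups overlapped (exact permutation p = 0.2). The values of EEF1A1 were 95.4, 106 and 105 in untreated and 93.7, 95.4 and 97.4 in VPA-treated libraries. EEF1B2 per ribosomal protein count differed by -13.8% without overlap (exact permutation p = 0.1, n = 3 each). The first untreated library was the lowest of its group in EEF1A1, EEF1B2 and EEF1G and also in its share of ribosomal protein counts. Without it the log2 fold change was -0.43 for EEF1A1, -0.53 for EEF1B2 and -0.39 for EEF1G.

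The 3 genes shown with a start tract, EEF1A1, EEF2 and EEF1B2, were all lower. So were EEF1G, without one at its annotated start, and EEF1D, whose start was left out. EEF2K and EEF1E1, without a tract, did not pass the test. Among 836 tested genes whose entries held a start tract 41.0% were lower and 27.5% higher, with a median log2 fold change of -0.071. Among the 10903 tested genes without one 31.2% were lower and 32.5% higher, with a median of -0.0014. These shares describe the tested genes with a promoter entry, and ribosomal protein genes are part of the first group.

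Of 26 genes that modify or assist the elongation factors 25 were tested, and 10 were lower and 1 higher at an adjusted p under 0.05, beside 30.0% lower and 32.9% higher of all tested genes. Their median log2 fold change was -0.030. The largest falls among those averaging 100 or more normalized counts were in DPH2 and DOHH. DPH2, a subunit of the enzyme that starts diphthamide synthesis on eEF2, went from 2375 ± 49.0 to 1588 ± 34.9 normalized counts (SD, n = 3 each), and its log2 fold change was -0.58 (standard error 0.043, adjusted p = 1.36e-10 in edgeR). The diphthamide genes DPH1 and DPH7 were also lower, DPH1 at -0.15 and DPH7 at -0.26, while DPH3, DPH5, DPH6 and DNAJC24 did not pass the test.

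DOHH, which completes hypusine on the elongation factor eIF5A, had a log2 fold change of -0.54, and EIF5A itself went from 26673 ± 945 to 20421 ± 675 normalized counts at -0.39 (adjusted p = 7.03e-07 and 1.21e-07 in edgeR). DHPS, which carries out the first step of hypusine synthesis, was at 0.074 and did not pass. EEF1AKMT1, a lysine methyltransferase of eEF1A, was at -0.53 (adjusted p = 7.89e-05). The 1 gene that was higher, named here after its value was seen, was EEFSEC, the elongation factor for selenocysteine, at 0.18 (standard error 0.056, adjusted p = 0.0079). GSPT2, on chromosome X, is listed at 0.

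The partners of EEF1E1 in the multi-tRNA synthetase complex were lower in 7 of 10 cases and higher in 0, beside 30.0% lower and 32.9% higher of all tested genes, with a median log2 fold change of -0.25. AIMP2, a scaffold of the complex like EEF1E1, went from 1854 ± 24.4 to 1365 ± 15.2 normalized counts (SD, n = 3 each) at -0.44, and the lysyl-tRNA synthetase KARS1 was at -0.43. The methionyl-tRNA synthetase MARS1 was at -0.26. AIMP1, LARS1 and QARS1 did not pass the test, with log2 fold changes of -0.091, -0.097 and -0.082. EEF1E1 at 0.031 thus lay above all 10 partners, under the limit on its counts given above.

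Among 10 genes that act on EEF2K or on eEF2 phosphorylation 3 were higher and 6 lower, so that the higher share was near the 32.9% of all tested genes and the lower share above the 30.0%. PRKAA2, a catalytic subunit of AMP-activated kinase, which activates EEF2K, went from 836 ± 37.5 to 1101 ± 59.6 normalized counts (SD, n = 3 each), and its log2 fold change was 0.40 (adjusted p = 1.90e-06 in edgeR), while the other catalytic subunit PRKAA1 was at -0.24 (adjusted p = 0.0014). RPS6KA1, a kinase that inhibits EEF2K, was at 0.31 (adjusted p = 0.00010). PPP2R1A, a scaffold subunit of the phosphatase PP2A, was at -0.25.

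In the mitochondrial counterparts TSFM, the exchange factor of the mitochondrial EF-Tu, was at -0.22 (adjusted p = 0.00065 in edgeR). GUF1 was lower at -0.17 and GFM2, which acts in ribosome recycling, was higher at 0.13 (adjusted p = 0.013 and 0.040). TUFM, the mitochondrial EF-Tu, and GFM1, the mitochondrial translocase, did not pass the test at -0.047 and -0.019. TUFM had 10025 ± 863 and 9700 ± 535 normalized counts (SD, n = 3 each). The counts of calls in these lists moved with the scaling, as the values after the report show.

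**Figure D4:**
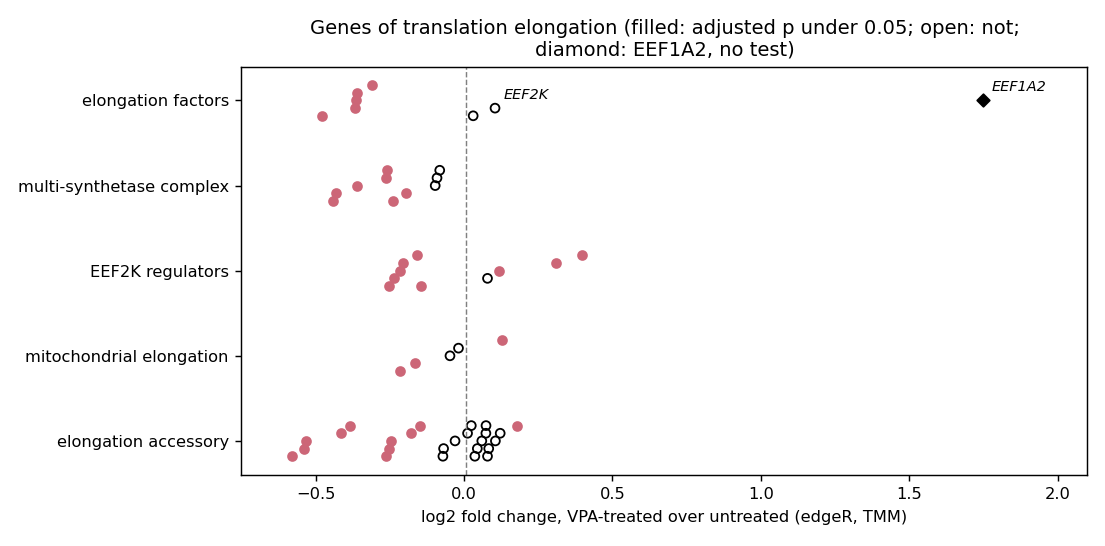
Log2 fold changes of the tested genes of each list, VPA-treated over untreated, with filled points for an adjusted p under 0.05, open points for the rest, a diamond for EEF1A2 and a dashed line at the median of all tested genes. The points other than EEF1A2 lie between -0.58 and 0.40, and EEF1A2 lies at 1.75.

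Other pairs of paralogs in translation were measured in the same way, as the share of the second gene in the counts of both. EIF4E3, a member of the cap-binding eIF4E family, went from 18.3% ± 0.51 to 28.2% ± 1.06 of EIF4E plus EIF4E3 (SD, n = 3 each), a ratio of 1.55. The share of EIF5A2 in EIF5A plus EIF5A2 went from 0.457% ± 0.055 to 0.616% ± 0.037, a ratio of 1.35, and that of EIF4G3 in EIF4G1 plus EIF4G3 from 9.99% ± 0.25 to 12.7% ± 0.33, a ratio of 1.27. The ratio of the shares was 0.94 for PABPC4, 0.97 for RPL22L1, 1.03 for RPL26L1 and 0.81 for RPS27L. Each of these ratios was smaller than the 4.15 of EEF1A2, with no test of the difference since EEF1A2 was chosen for its rise. RPL3L, a muscle form of RPL3, had 1 count in each untreated library and 5 or 6 in each VPA-treated one, too few for a share. EIF4A1 is listed at 0 in every library, which need not mean that it is not expressed, and its pair was left out.

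EEF1A2 is known from neurons and striated muscle, and markers of both were read beside it. Of 7 neuron markers 5 were tested and 4 of them were higher, as were 32.9% of all tested genes. They were RBFOX3, SNAP25, MAP2 and SLC17A7, with at most 179 counts in any library, and the fifth was GAD1 at 0.15. The sum of the 7 was 292 to 312 normalized counts in untreated and 581 to 591 in VPA-treated libraries. SYN1 and SYP, on chromosome X, are listed at 0.

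Of 8 striated muscle markers 4 were tested, with TNNT1, TTN and DES higher and ACTA1 lower, beside 32.9% higher and 30.0% lower of all tested genes. TNNT1, the slow skeletal troponin T, made up most of the sum, at 471 ± 42.4 and 1119 ± 38.3 normalized counts (SD, n = 3 each). The sum of the 8 was 483 to 546 in untreated and 1172 to 1238 in VPA-treated libraries. TNNT3 is listed at 0 in every library, and MYH7, MYH2 and CKM had at most 9 counts in any library. The part of these marker genes' cell types in the rise of EEF1A2 was not tested.

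Of the genes within 200 kb of EEF1A2 on chromosome 20, 25 were listed and 10 tested, of which 5 were higher and 3 lower, beside 32.9% higher and 30.0% lower of all tested genes. The median log2 fold change of the 10 was 0.38. PPDPF at 21.7 kb had a log2 fold change of 0.33 and HELZ2 at 59.0 kb one of 0.44 (adjusted p = 0.032 and 8.86e-05 in edgeR). The nicotinic receptor gene CHRNA4 at 127 kb was at 2.28 from 20.5 ± 9.09 to 100.1 ± 2.65 normalized counts (SD, n = 3 each), and it was the 1 gene of the 10 past a log2 fold change of 1.

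STMN3, a stathmin gene at 141 kb, was at 0.52 (adjusted p = 7.23e-09 in edgeR). GMEB2, ARFRP1 and ARFGAP1 were lower, at -0.48, -0.39 and -0.14, so that higher and lower genes lay on both sides of EEF1A2. RTEL1 and the RNA MHENCR did not pass the test.

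**Figure D5:**
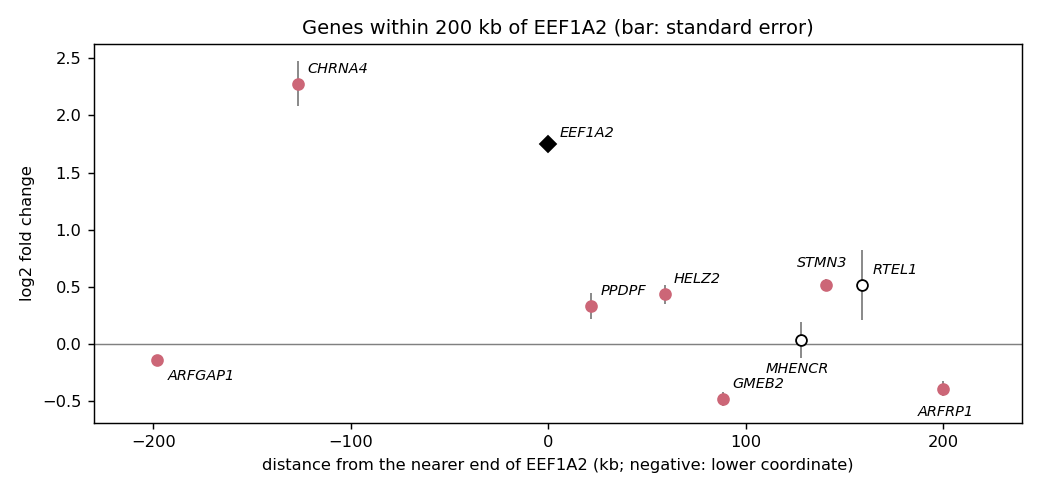
Log2 fold change with its standard error for 9 of the 10 tested genes within 200 kb of EEF1A2, plotted against the distance in kb from the nearer end of EEF1A2, with filled points for an adjusted p under 0.05, open points for the rest and EEF1A2 as a diamond at 0. CHRNA4 lies at 2.28 and EEF1A2 at 1.75, and the other 8 genes shown lie between -0.48 and 0.52.

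The genes whose pattern over the 6 libraries was most like that of EEF1A2 were found by the root mean square difference in centred log2 normalized counts, among 11064 candidate genes averaging 100 or more normalized counts. They were ENPP2, which codes for the secreted enzyme autotaxin, BASP1, a membrane protein of growth cones, PKIB, an inhibitor of protein kinase A, ALS2CL and MEGF11, with differences of 0.029 to 0.050 on the log2 scale. Their log2 fold changes were between 1.69 and 1.81, against 1.75 for EEF1A2. The mean of BASP1, for example, was 379 ± 4.16 before and 1279 ± 21.3 normalized counts after VPA (SD, n = 3 each). With 2 groups this likeness mostly reflects a similar fold change, which was the ground on which EEF1A2 was chosen.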

How the data were processed

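RNA-seq libraries of untreated (n = 3) and VPA-treated (n = 3) HEK293T cells were analysed. Raw counts per gene symbol were deposited by the authors, made with htseq-count from STAR alignments to hg38 after SOAPnuke cleaning, and not normalized. The submitters' processing notes name STAR 2.7.10b and HTSeq 2.0.1, while the methods name another HTSeq version. The gene annotation and strand setting are not given in the sources used here. The 5 summary lines were left out of library sizes and tests. Of the reads listed per library 6.80% to 7.69% were off any gene and 1.97% to 2.10% ambiguous.

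Counts were tested in edgeR 4.0.16 (R 4.3.3) with TMM normalization, filterByExpr (count minimum 10) and a robust quasi-likelihood model of condition alone (prior count 0.125), and p-values were adjusted by Benjamini-Hochberg over all 15298 genes. Standard errors were obtained as log2 fold change over the square root of F. Shares have exact (Clopper-Pearson) intervals, and ratios, to EEF1A1 or alternatively to EEF2 or ribosomal protein counts, an exact permutation test. On simulated counts 200 genes were changed by a log2 fold change of 2 in this comparison, up and down in equal number. Of these edgeR called 200, with 9 unchanged genes, over 15044 genes, and DESeq2 1.42.0 called 200 and 4 over 15298. With few genes changed and both directions balanced, the simulation could not test the choice of scaling. Alternatives were DESeq2, 4 other scalings, other filters, prior count 2, FDR 0.01, the replicate block and leaving out each library. Named genes of a list were those called that averaged 100 or more normalized counts and had the largest log2 fold change in size, at most 4 a list, with all tested mitochondrial and neighbouring genes. Some genes that this rule names are not reported here. The genes and lists were chosen with earlier results of these data known. The MANE Select lengths and ratios to ribosomal protein counts were added after seeing the data. Coordinates and start sequences are from RefSeq (GRCh38.p14), transcript lengths and strands from GENCODE 44.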

Additional observations from a re-analysis of the deposited data

How the results depend on the processing

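The number of elongation factor genes higher in VPA-treated cells was 1, EEF1A2, and rose to 2 with upper quartile scaling, library totals, at least 10 counts in every library or the replicate block, and to 3 with ribosomal protein scaling. The number lower was 5 and fell to 1 with ribosomal protein scaling. The replicate block therefore added EEF2K. Same-numbered libraries correlated in their deviations with r of 0.13, 0.018 and 0.071, and differently numbered ones with r of -0.098 to 0.031. The labels do not say whether same-numbered libraries belong together, and pairing was not tested. With a library left out the log2 fold change of EEF1E1 was between -0.059 (without untreated replicate 2) and 0.095.

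Of the accessory genes 1 was higher in the main test, 0 with DESeq2, 6 with upper quartile, 10 on library totals, 16 on ribosomal protein scaling and 0 (without untreated replicate 2) to 2 (without untreated replicate 1) with a library left out; 10 were lower, and 4 with ribosomal protein scaling. In the synthetase complex ribosomal protein scaling gave 2 lower and 3 higher genes. Of the EEF2K regulators 5 passed with library totals, 1 of them lower, and with ribosomal protein scaling 6 were higher and 0 lower. Of the mitochondrial factors 1 was lower with upper quartile and 0 with library totals or ribosomal protein scaling, where 2 and 3 were higher. For these factors 0 were higher with DESeq2, DESeq2 size factors, no filter or an FDR of 0.01, where 1 passed, which was lower. With a library left out 1 to 3 were lower and 0 to 1 higher. Which of the scalings holds was not tested, and neither was the cause of the other changes.

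The share of EEF1A2 was 2.29% and 9.14% per kb of merged exons and 2.18% and 8.73% per kb of the MANE Select transcript, added after seeing the data. It was the same with pseudogene counts added, since none is listed. The log2 ratio of EEF1D to EEF1A1, -0.012, was 6.41e-05 with EEF2 as the denominator and between -0.072 and 0.065 with a library left out. That of EEF2 to EEF1A1, -0.010, was between -0.068 and 0.061. That of EEF1G, 0.052, turned to -0.045 with ribosomal protein counts as the denominator, on which EEF1D was at -0.10 without overlap between the groups (exact permutation p = 0.1, n = 3 each) and EEF2 at -0.10 with overlap (exact permutation p = 0.2). With EEF2 as the denominator EEF1B2 went from -0.12 to -0.11 and its groups overlapped.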
